A study of Mus musculus with 8 samples.

Results

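The genes of the proteasome were followed in the quadriceps muscle of adult male C57Bl/10 mice after sustained low oxygen. Members were all genes whose probe sets the array annotation pairs with exactly 1 symbol that begins with Psma, Psmb, Psmc, Psmd, Psme, Psmf or Psmg. This gave 49 genes, read by 103 of the 45101 probe sets of the array, among 18194 genes named on it. Of the 49 genes, 46 had a probe set above the filter on dim signals and were tested. The other 3, Psma8, Psmb9 and Psmb11, were below it. The prefixes also caught Psmc3ip, a cofactor of meiotic recombination, and Psme3ip1, a protein that binds the activator encoded by Psme3. Neither is a proteasome subunit, and both are given apart.

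Control mice (4 arrays) were kept in room air for 2 weeks. Hypoxia mice (4 arrays) spent the same 2 weeks in a closed chamber in which oxygen was lowered from 21% to 8% in the first week and held at 8% for 7 days. All mice were of 1 strain and sex, and no genotype or drug separates the groups. Chamber and low oxygen cannot be told apart, and the labels do not state whether each sample is a separate animal, so the p-values measure the spread between these samples. In whole muscle, fewer cells of a type and less RNA per cell cannot be told apart either.

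The proteasome is the large protease that destroys proteins tagged with ubiquitin. Its core particle is a barrel of alpha rings, which gate entry, around beta rings, which hold the cutting sites of Psmb5, Psmb6 and Psmb7. A regulatory particle caps the barrel: a base with ATPases unfolds the substrate, and a lid removes the ubiquitin. In immune cells and under interferon gamma the cutting subunits are replaced by Psmb8, Psmb9 and Psmb10, which form the immunoproteasome, and the PA28 activator of Psme1 and Psme2 favours the release of peptides for antigen presentation. In skeletal muscle the proteasome degrades myofibrillar proteins during wasting.

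Across the arrays most genes of the standard particle rose, while 3 genes of the immune form and its activator fell. Of 46 tested members 28 rose and 3 fell, with an adjusted p under 0.05 by limma over all genes. Among the 13257 genes tested, 33.6% were called, 14.8% higher and 18.8% lower, against 60.9% and 6.52% of the members. These shares are for the filter that leaves out the dimmest 40% of probe sets. With the dimmest 60% left out, 45 members remained, and the member lost was Psmb8, 1 of the 3 that fell. In that setting 19.1% of all genes were called higher and 23.3% lower. All 28 rises were subunits of the core or regulatory particle, where 28 of 31 tested genes rose, none fell and the median log2 change was 0.93. The median of all genes tested was -0.04. The 3 falls were Psmb8, Psmb10 and Psme1, and no assembly chaperone passed the test. In all 31 called members the signals of both groups were fully separate, and over all genes tested 33.4% were, 14.8% higher and 18.7% lower.

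**Figure D1:**
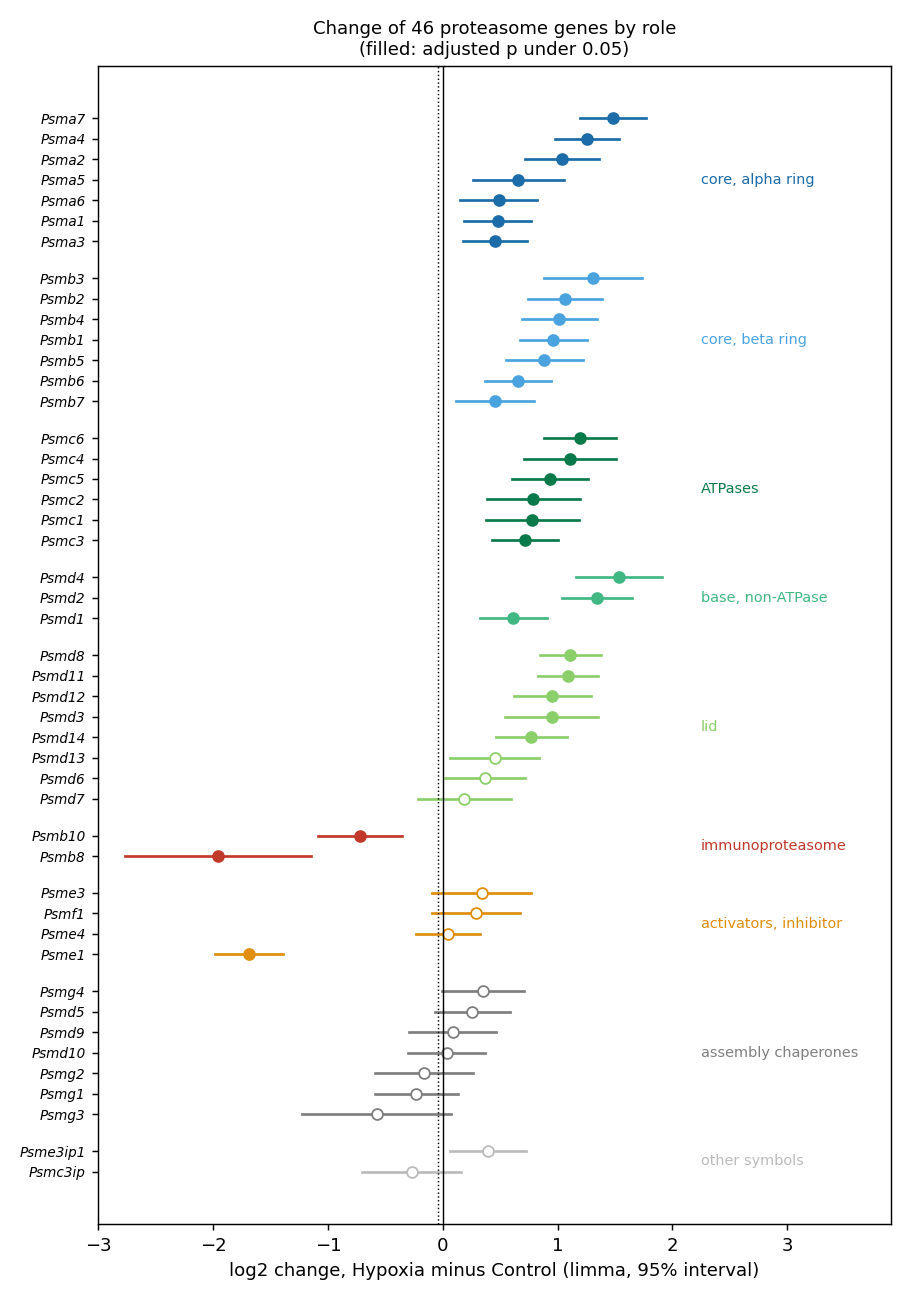
The plot gives the log2 change, Hypoxia minus Control, of the 46 tested genes on the horizontal axis with its 95% interval from the limma fit, 4 arrays per group, grouped and coloured by role. Filled points passed an adjusted p of 0.05, and the dotted line marks the median of all genes tested. The core and regulatory particle genes lie to the right of 0, from 0.19 for Psmd7 to 1.54 for Psmd4, while Psmb8, Psme1 and Psmb10 lie to the left.

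Signals are linear MAS5 intensities, log2 changes were computed on the signal plus 16, and their standard errors (SE) come from limma. Means of signals are given ± SD over the 4 arrays of a group. RNA quality differed between the arrays. For Gapdh, the control probe sets at the 3' end read 3.44 times those at the 5' end in Hypoxia 1, and between 0.776 and 0.874 times in the other 7 arrays. For beta-actin this ratio was 2.53 in Hypoxia 1, 1.40 to 1.59 in Hypoxia 2 to 4 and 1.09 to 1.25 in Control. The beta-actin ratio was thus higher on every Hypoxia array than on every Control array. Its part in the changes was not tested. Without Hypoxia 1, 29 members were called higher and 3 lower, but this omission does not remove the beta-actin difference between the groups. Defining fibre genes were bright in every array, with Acta1 at a mean of 58243 in Control and 41882 in Hypoxia. Summed over the 8 fibre markers, the signal was 338964 to 403838 in Control and 206089 to 300662 in Hypoxia, and 6 of the 8 fell.

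The alpha ring forms the gate of the core, and all 7 tested subunits rose, from 0.45 for Psma3 to 1.49 for Psma7. Psma7 had signals of 4801, 5117, 5462 and 5105 in Control and of 12285, 16161, 15477 and 13810 in Hypoxia. Every Hypoxia array was far above every Control array. The mean went from 5121 ± 270.0 to 14433 ± 1739 (n = 4 per group, log2 change 1.49 ± 0.13 SE, limma adjusted p = 4.18e-06). A further probe set of Psma7 gave 1.67. Psma4 rose 2.39-fold and Psma2 rose 2.05-fold. Psma3 had the smallest rise of the ring, with 15265, 17037, 17445 and 18055 in Control and 26716, 22725, 20711 and 22874 in Hypoxia. Its groups did not overlap (log2 change 0.45 ± 0.13 SE, limma adjusted p = 0.0160). Psma5, Psma6 and Psma1 rose by 0.66, 0.49 and 0.48. The smallest rises were near the threshold: Psma6 lost its call without Control 1, 2 or 4 (limma adjusted p up to 0.0705), Psma3 without Control 1 (limma adjusted p = 0.0533) and Psma1 without Hypoxia 2 (limma adjusted p = 0.0526). Psma6 also lost its call without a filter and without the eBayes trend (limma adjusted p = 0.0673 and 0.0595). The Psma6 value is from a probe set that can bind related transcripts, and its other bright probe set gave 0.90. Psma8, which replaces Psma7 in the testis, had signals of 15.0 to 85.9 over all arrays and was not tested.

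All 7 constitutive beta subunits rose as well, with a median of 0.96. Psmb3, a structural subunit, showed the largest change. Its Control signals were 7674, 8757, 11024 and 10741, and its Hypoxia signals were 33996, 24350, 19132 and 18833. Hypoxia 1 was the highest, and the groups were well apart (2.47-fold, log2 change 1.31 ± 0.20 SE, limma adjusted p = 0.000257). Psmb2, Psmb4 and Psmb1 rose 2.09-fold, 2.02-fold and 1.95-fold. Dimmer further probe sets of Psmb1, at Control means of 521 and 403, gave 0.21 and 0.29 without passing. With the mean of its probe sets Psmb1 changed by 0.49 and kept its call. Among the cutting subunits, Psmb5, the chymotrypsin-like site, rose by 0.89, and Psmb6, the caspase-like site, rose by 0.66. Psmb7, the trypsin-like site, had the smallest change in the ring, with 21493, 29198, 23452 and 17140 in Control and 30347, 32428, 29453 and 30704 in Hypoxia. Control 2 nearly reached the lowest Hypoxia array (log2 change 0.45 ± 0.16 SE, limma adjusted p = 0.0409). The Psmb7 call was lost without any one of Control 1, 3 or 4 or of Hypoxia 2 or 4, with an adjusted p up to 0.132 (limma). It was also lost without a filter and without the eBayes trend (limma adjusted p = 0.103 and 0.0825).

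The 6 ATPases of the base, which unfold the substrate and push it into the core, all rose. Their changes lay close together, from 0.71 for Psmc3 to 1.20 for Psmc6. Psmc6 had Control signals of 5184, 6852, 6852 and 6009 and Hypoxia signals of 16717, 14565, 12975 and 12912. The lowest Hypoxia array stood well above the highest Control array (2.29-fold, log2 change 1.20 ± 0.14 SE, limma adjusted p = 4.71e-05). Psmc3 had 7267, 9829.9, 8914 and 9339.6 in Control and 15066, 14747, 13933 and 13908 in Hypoxia (1.64-fold, limma adjusted p = 0.00117). Psmc4 rose 2.16-fold, Psmc5 rose 1.91-fold, Psmc2 rose 1.73-fold and Psmc1 rose 1.72-fold. With the mean of its probe sets Psmc2 changed by 0.29 and no longer passed. A dim probe set, at a Control mean of 139.8, gave -0.75, against 0.83 for its other bright one.

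The non-ATPase subunits of the base, which bind ubiquitin or the shuttle factors that carry it, rose in all 3 cases. Psmd4, a ubiquitin receptor, had the largest rise of all members. Its signals were 4659, 5762, 7225 and 7218 in Control and 14784, 21962, 17364 and 17708 in Hypoxia. The groups were far apart (mean 6216 ± 1245 to 17955 ± 2973, log2 change 1.54 ± 0.17 SE, limma adjusted p = 2.84e-05). A bright further probe set of Psmd4 gave 1.35, and a dimmer one gave 0.28 without passing. Psmd2, a large scaffold of the base, rose 2.54-fold, and Psmd1, its partner scaffold, had the smallest rise. Psmd1 had 4929, 5835, 5950 and 5779 in Control and 8150.4, 9967, 7663 and 8782 in Hypoxia, without overlap (log2 change 0.62 ± 0.13 SE, limma adjusted p = 0.00351).

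Of the 8 lid subunits 5 rose: Psmd8, Psmd11, Psmd12, Psmd3 and Psmd14, by 0.77 to 1.11. Psmd14 encodes the deubiquitinase that strips ubiquitin chains from the substrate, and it rose 1.71-fold. Psmd8 had 10507, 11624, 10732 and 9810 in Control and 21688, 23127, 22078 and 25384 in Hypoxia. These values lay tightly around their means (10668 ± 748 and 23069 ± 1658, limma adjusted p = 2.32e-05). Psmd11 was read by 6 probe sets above the filter. Of these 5 were called higher, at 0.87 to 1.25, and a dim one gave -0.24.

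Psmd13, Psmd6 and Psmd7 of the lid did not pass the test. Psmd7, an inactive partner of Psmd14, had signals of 4586, 4880, 4997 and 5126 in Control and 3809, 6491, 7475 and 5238 in Hypoxia. Hypoxia 1 lay below every Control array and the other 3 Hypoxia arrays above (log2 change 0.19, 95% interval -0.22 to 0.59, limma adjusted p = 0.484). Psmd13 had 1869 in Hypoxia 1, within the Control range of 1573 to 1896, and 2037 to 3262 in the other Hypoxia arrays. Without Hypoxia 1 its change was 0.56 and passed with a limma adjusted p of 0.0226. Psmd6 changed by 0.37 with a limma adjusted p of 0.0995, and was called without Hypoxia 3 (0.46, limma adjusted p = 0.0440). Its further probe set gave 0.48 and was called. The 3' to 5' ratios given above set Hypoxia 1 apart, and their part in these values was not tested.

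**Figure D2:**
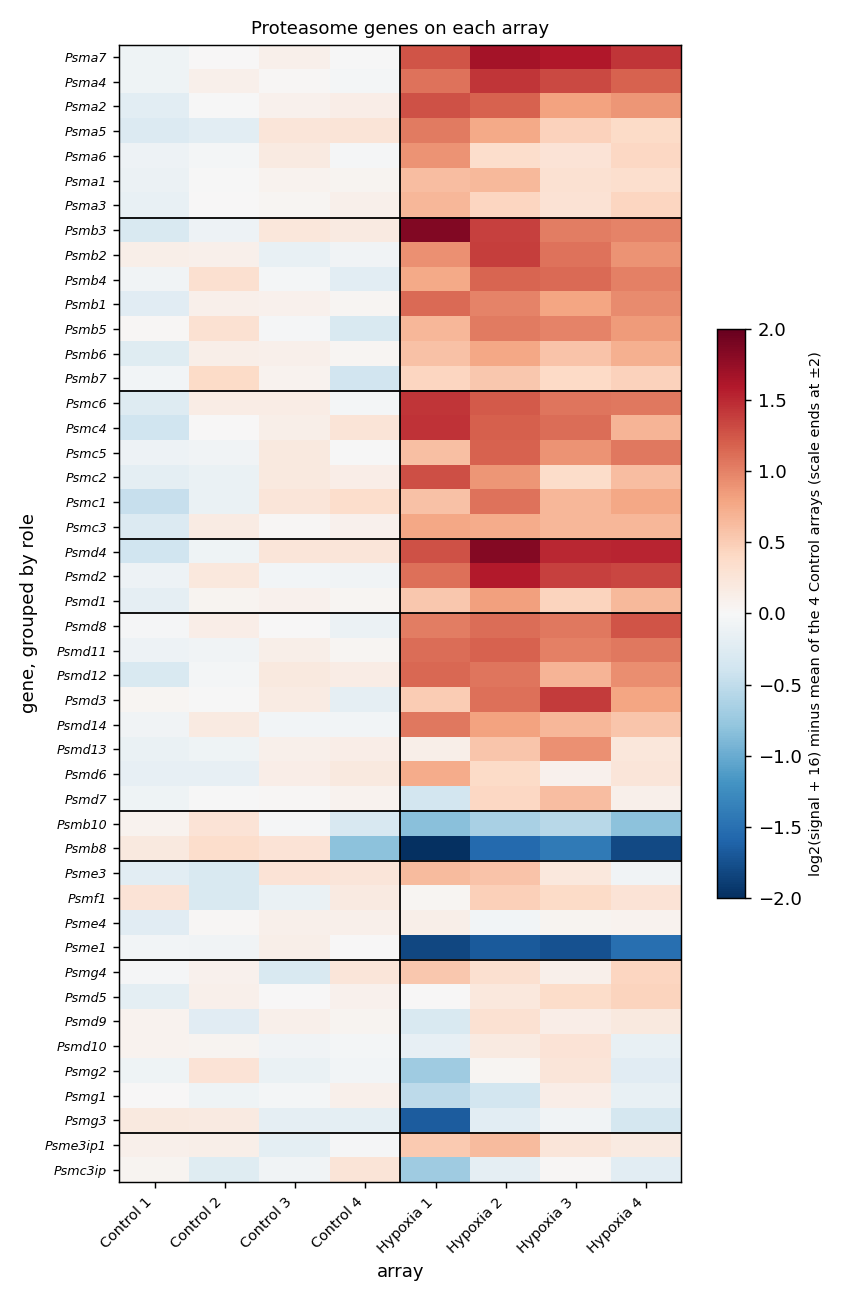
The map gives log2(signal + 16) of each of the 46 tested genes on each of the 8 arrays as the difference from the mean of the 4 Control arrays, with genes grouped by role between black lines in the order core alpha, core beta, ATPases, other base, lid, immunoproteasome, activators and inhibitor, chaperones, other symbols. The core and regulatory particle genes are higher (red) on nearly all Hypoxia arrays, Psmb8, Psmb10 and Psme1 are lower (blue) on each of them, and Psmg3 is low on Hypoxia 1.

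The rise was spread over all Hypoxia arrays. Averaged over the 14 tested constitutive core genes, the distance from the Control mean was 0.94, 0.98, 0.79 and 0.78 in Hypoxia 1 to 4, and between -0.13 and 0.07 in Control. For the 17 regulatory particle genes it was 0.85, 1.01, 0.85 and 0.80 in Hypoxia and between -0.19 and 0.11 in Control. Hypoxia 2 was the highest Hypoxia array for 14 of the 28 genes that rose and the lowest for none. Hypoxia 1 was the highest for 12 and the lowest for 10, Hypoxia 3 the highest for 1 and the lowest for 11, and Hypoxia 4 the highest for 1 and the lowest for 7. The SD of the changes over the 31 core and regulatory particle genes was 0.34, and over all genes tested it was 0.80. These 31 genes are bright, while dim genes among all those tested carry larger errors. The 2 values are therefore not matched for brightness.

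Of the immunoproteasome and thymoproteasome genes, the 2 that could be tested, Psmb8 and Psmb10, fell. Psmb8, which takes the place of Psmb5, had signals of 473, 532, 504.5 and 226.3 in Control and 35.6, 129, 146 and 107 in Hypoxia. All Hypoxia arrays were below all Control arrays, and Hypoxia 1 was under the filter at a signal of 90.2. The mean went from 434 ± 141 to 104 ± 48.5 (n = 4 per group, 3.88-fold lower, log2 change -1.96 ± 0.37 SE, limma adjusted p = 0.00145). Leaving out 1 array at a time gave -1.59 to -2.23, and the call was kept each time. Psmb10, which takes the place of Psmb7, had 762, 880, 712 and 574.5 in Control and 397, 453.5, 490 and 401 in Hypoxia. Its groups did not overlap (1.65-fold lower, log2 change -0.72 ± 0.17 SE, limma adjusted p = 0.00545).

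Psmb9, which takes the place of Psmb6, was too dim to be tested. Control 1 and 2 were at 170 and 203, Control 3 and 4 at 37.8 and 28.7, and the Hypoxia arrays at 24.8 to 33.8. Control 4 lay within the Hypoxia range, and only Control 1 and 2 stood above the filter signal. Psmb11, the thymus-specific subunit, was dim throughout, at 12.8 to 76.8 in Control and 94.6 to 144.9 in Hypoxia.

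Psmb8 and Psmb10 were then each set against the subunit it replaces, as the log2 difference of both genes on the same array. Such a difference shows unequal change, and not which of the forms is more abundant, since the levels of different probe sets cannot be compared. The change of Psmb8 lay below that of Psmb5 by a difference of log2 changes of -2.84, and that of Psmb10 lay below that of Psmb7 by -1.17. In both pairs the immune subunit was lower and the constitutive subunit higher on every Hypoxia array than on every Control array. This separation alone fixes the exact permutation p at 0.0286, the smallest that 4 against 4 arrays allow (two-sided; also the Benjamini-Hochberg value over 3 pairs), so the p adds nothing to the tests of the single genes. With 1 array left out at a time the differences ran from -2.55 to -3.01 for Psmb8 and from -1.13 to -1.25 for Psmb10. No comparison is drawn for Psmb9 against Psmb6, since Psmb9 was under the filter signal on 6 of the 8 arrays.

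**Figure D3:**
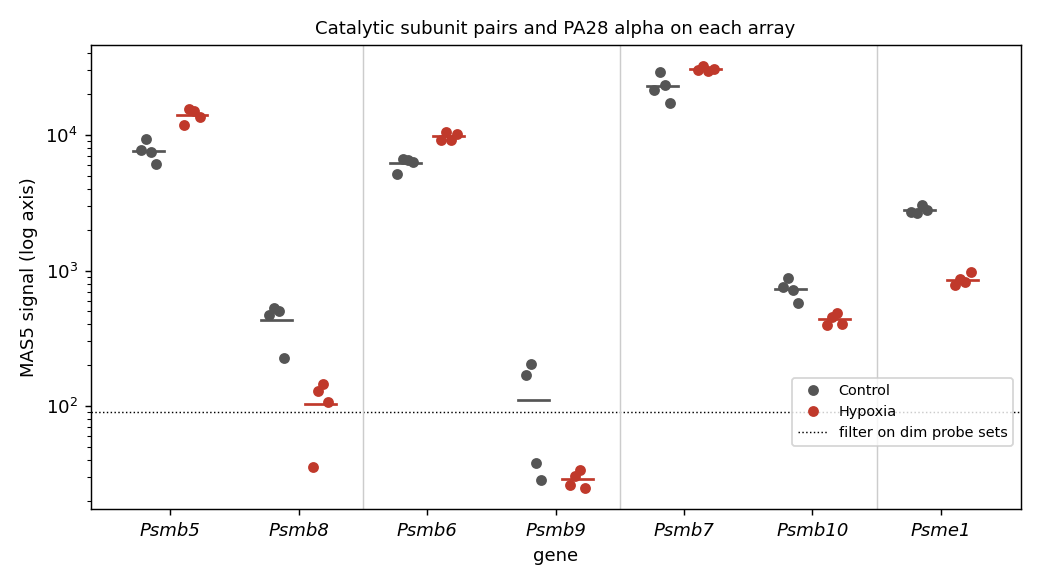
Signals on a log axis are shown for each constitutive cutting subunit beside its immunoproteasome counterpart (Psmb5 and Psmb8, Psmb6 and Psmb9, Psmb7 and Psmb10) and for Psme1, with 1 point per array, grey for Control and red for Hypoxia, and a bar at the mean of 4 arrays. Psmb5, Psmb6 and Psmb7 are higher in Hypoxia, and Psmb8, Psmb10 and Psme1 are lower. Psmb9 was not tested and its groups overlap: the Control arrays split into a pair near 170 to 203 and a pair below the dotted filter line.

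The sequences before the starts of Psmb5, Psmb6, Psmb8 and Psmd4 are shown. Each holds a match to a pattern named below, so they do not stand for the other members. Psmb5 and Psmb8 are a pair that moved apart, and the pair of Psmb7 and Psmb10 is not shown. Windows of 300 bases around the start, 250 before and 50 after, were taken from RefSeq on GRCm38.p6, and 41 of the 49 members had one. The 100 bases before the start are printed 5' to 3' in the direction of the gene. Capitals mark matches on either strand to the core of the antioxidant response element (TGACNNNGC, a letter pattern bound by the NRF factors), the CCAAT box (CCAAT), the core of the interferon-stimulated response element and the STAT-type palindrome (TTCNNNGAA). Psmb5 lies on the minus strand at chr14:54617996-54618095, Psmb6 on the plus strand at chr11:70525257-70525356, Psmb8 on the plus strand at chr17:34198095-34198194, and Psmd4, the member with the largest rise, on the minus strand at chr3:95042615-95042714.
Psmb5: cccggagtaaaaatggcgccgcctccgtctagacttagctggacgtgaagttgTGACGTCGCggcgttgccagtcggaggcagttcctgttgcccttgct
Psmb6: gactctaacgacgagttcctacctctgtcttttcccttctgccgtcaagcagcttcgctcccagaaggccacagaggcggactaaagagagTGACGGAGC
Psmb8: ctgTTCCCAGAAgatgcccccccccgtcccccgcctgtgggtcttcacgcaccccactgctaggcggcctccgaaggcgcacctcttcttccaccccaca
Psmd4: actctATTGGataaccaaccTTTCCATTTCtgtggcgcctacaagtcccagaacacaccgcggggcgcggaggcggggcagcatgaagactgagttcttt

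Psmb5 and Psmb6, which rose, each hold an antioxidant element match before the start, and Psmb8, which fell, holds a STAT-type match. The matches are a description of these letters and not of binding. Over all windows the antioxidant core was found in 4 of 23 members that rose (17.4%), in 2 of 13 that did not pass (15.4%) and in 14.0% of 27025 genes with a window. The CCAAT box was found in 10 of the 23 (43.5%), in 4 of the 13 (30.8%) and in 41.1% of all genes. Of the members that rose, both shares lie near those of all genes. The interferon core was found in 2 of the 23 that rose (8.70%), Psmb3 and Psmd4, in 1 of the 3 that fell, Psme1, in 2 of 13 that did not pass (15.4%), Psmd9 and Psmg4, and in 3.99% of all genes. The STAT-type palindrome was found in 1 of the 23 (4.35%), Psmd2, in 1 of the 3 that fell, Psmb8, in 1 of 13 that did not pass (7.69%), Psmg1, and in 9.55% of all genes.

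Psme1, the alpha subunit of PA28, had the smallest adjusted p of all members. It had signals of 2691, 2657, 3030 and 2799 in Control and 779, 865, 821 and 969.5 in Hypoxia. The groups lay far apart with little spread within each (2794 ± 169 to 859 ± 81.8, 3.22-fold lower, log2 change -1.69 ± 0.14 SE, limma adjusted p = 1.71e-06). Psme2 encodes the beta subunit of PA28 and is read by a probe set shared with Psme2b, which the 1-symbol rule leaves out. That probe set had 2752, 2191, 2834 and 2143 in Control and 1159, 1076, 1498 and 2236 in Hypoxia. Hypoxia 4 reached into the Control range, and the difference of the log2 means, not tested, was -0.78.

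The other activators and the inhibitor did not pass. Psme3, the nuclear PA28 gamma, had 879, 827.5, 1239 and 1221 in Control and 1602, 1535, 1186 and 979 in Hypoxia (log2 change 0.34, 95% interval -0.09 to 0.77). Its groups overlapped. Psme4, the activator PA200, was bright, with overlapping signals of 10484, 12538, 13233 and 13163 in Control and 13289, 11842, 12747 and 12891 in Hypoxia (log2 change 0.04, 95% interval -0.23 to 0.32). Psmf1, which encodes the inhibitor PI31, had 579, 384.5, 434 and 542 in Control and 491, 672, 629 and 579 in Hypoxia (log2 change 0.29, 95% interval -0.10 to 0.68).

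None of the 7 assembly chaperones, which help build the particles and leave them, passed in either direction. Their changes ran from -0.57 to 0.35, with a median of 0.03. Psmg1 and Psmg2 form a dimer that builds the alpha ring. Psmg1 had 981, 917, 948 and 1046 in Control and 669, 746, 1067 and 874 in Hypoxia. Psmg2 had 1315, 1674, 1264 and 1340.1 in Control and 845.5, 1422, 1647 and 1192 in Hypoxia. Both overlapped, with changes of -0.23 and -0.16. A further probe set of Psmg2, with means of 1527 and 1056, was called lower at -0.54, so the chaperone is uncertain. Psmg3 and Psmg4 form the other dimer. Psmg3 had 697, 691, 537 and 527 in Control and 180, 523, 581 and 471 in Hypoxia, where Hypoxia 1 was far below the rest (log2 change -0.57, 95% interval -1.22 to 0.08). The signals overlapped for Psmg4 too, which had 812, 877, 659.7 and 973 in Control and 1200.2, 1032, 886 and 1112 in Hypoxia (0.35, limma adjusted p = 0.127).

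Psmd5, Psmd9 and Psmd10 assist the assembly of the ATPase ring, and none of them passed. Psmd5 had 909.8, 1116, 1049 and 1103 in Control and 1052, 1201, 1342 and 1429 in Hypoxia, with a change of 0.26. Psmd9 had 547, 442, 564 and 546 in Control and 421, 651, 574 and 603 in Hypoxia, with a change of 0.09. Psmd10, known as gankyrin, had 738, 731, 669.9 and 682.5 in Control and 628, 801.5, 853 and 632 in Hypoxia, with a change of 0.03. In these genes the groups overlapped. Of the symbols that are no subunits, Psmc3ip changed by -0.27 and Psme3ip1 by 0.39, and neither passed. Psme3ip1 was called without Hypoxia 4 (0.47, limma adjusted p = 0.0494).

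Further probe sets above the filter were present for 13 of the 28 genes that rose. Of these 23 probe sets 16 were called higher, none lower and 7 neither, when each probe set was tested as its own unit. In that test 13.3% of the 22840 probe sets were called higher and 18.0% lower. The 3 genes that fell had no further probe set above the filter.

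Factors that work with the proteasome but do not carry its prefixes were taken from a list of partners. Of 23 tested, 10 rose (43.5%) and 2 fell (8.7%), with a median of 0.26. Over all genes tested 14.8% were called higher and 18.8% lower. Nploc4 and Ufd1, which with the ATPase p97 extract ubiquitinated proteins, rose 3.55-fold and 2.08-fold, while Vcp, the gene of p97 itself, fell by 0.44 on the log2 scale. Zfand2a, a stress-induced zinc finger protein that binds the proteasome, rose 2.70-fold, and Ngly1, the glycanase that activates NRF1, rose 2.29-fold. Nfe2l1, which encodes NRF1, the factor that drives proteasome genes, changed by 0.21 without passing (limma adjusted p = 0.684). The proteasome-bound deubiquitinases Uchl5 and Usp14 rose 2.12-fold and 1.59-fold, and the shuttle factor Rad23b rose 2.02-fold. Akirin2, which carries proteasomes into the nucleus, Txnl1 and the peptidase Tpp2 rose by 0.85, 0.79 and 0.69. Ecpas, a scaffold that binds both particles, changed by -0.48 and was called lower. The calls of Vcp and Ecpas were near the threshold, and between 0 and 3 partners were called lower when 1 array was left out. Pomp, the maturation factor of the core, changed by 0.26, and Sem1, a small lid subunit, by 0.11, and neither passed. Of the ubiquitin genes and E1 enzymes only Uba6 could be tested, and it fell 1.86-fold.

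Genes of antigen processing and interferon response were listed beside the immunoproteasome because many share its regulation. Of 20 tested, 5 fell and 1 rose, with a median of -0.30. The share of 25.0% called lower stands beside 18.8% of all genes. It counts Ifit3 and Tap2, which passed the filter through Control, so no excess is read from it. Ifit3 and Tap2, a subunit of the peptide transporter whose gene lies next to Psmb8, were called lower. Their Hypoxia means of 90.5 and 84.0 lay at or below the filter signal, against Control means of 424 and 246, so they passed the filter through Control and no fold is given. Gbp2 fell 1.85-fold. B2m, the light chain of MHC class I, and Irf1 fell by 0.69 and 0.66 on the log2 scale. Tap1, between Psmb9 and Psmb8 on chromosome 17, had a dim probe set with means of 131 and 228 and was called higher at 0.71 with a limma adjusted p of 0.0483. No gene of the list was called higher when any one of the Control arrays, or of Hypoxia 2, 3 and 4, was left out.

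Immune cells carry the immunoproteasome, and their markers were measured on the same arrays. Of 7 T and NK cell markers on the array 2 passed the filter and none was called, and Cd3d, Cd3e, Cd4, Gzma and Nkg7 were below it. The summed signal of this list, with the markers below the filter included, was 977 to 1139 in Control and 769 to 892 in Hypoxia. Cd8a and Cd3g, the markers past the filter, changed by -0.25 and -0.52 (limma adjusted p = 0.322 and 0.310). No loss of these cells is read from the sum. Of 6 B and plasma cell markers 4 passed the filter and 1, Jchain, fell, with Cd79a and Cd79b below the filter and sums of 768 to 1456 in Control and 556 to 786 in Hypoxia. Of 8 macrophage markers Csf1r and Adgre1 fell and Cd68 rose, and the sums overlapped, at 10237 to 15122 and 9330 to 16658. Of 5 dendritic cell markers 2 passed the filter and neither was called, with Ccr7, Itgax and Xcr1 below it and sums of 459.5 to 583 and 363 to 517. Of 7 neutrophil markers 5 passed the filter and S100a8 and S100a9 rose, with Cxcr2 and Mpo below it and sums of 608 to 1032 in Control and 3024 to 5553 in Hypoxia. The other markers past the filter, Csf3r, Elane and Camp, changed by -0.11, -0.01 and 0.54, and none was called. The higher sum rests on S100a8, with means of 271 and 2508, and S100a9, with means of 49.6 and 1056. S100a9 lay under the filter signal in Control and passed the filter through Hypoxia. Of 7 endothelial markers Cldn5 and Kdr fell, with overlapping sums of 5371 to 9002 and 4039 to 7424. All 6 fibroblast markers fell, with sums of 45159 to 50905 in Control and 13984 to 18732 in Hypoxia. One of them, Pi16, had a Hypoxia mean of 51.7, under the filter signal, and passed the filter through Control. Of 4 adipocyte markers 3 passed the filter and all of these fell (Fabp4, Adipoq and Cidec), with Lep below it and sums of 28568 to 59094 in Control and 17225 to 26615 in Hypoxia. The 1 erythroid marker past the filter, Alas2, was not called, and the sums of that list overlapped. The part of these cells in the fall of Psmb8, Psmb10 and Psme1 was not tested.

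Other large complexes of the cytosol were listed for comparison. Of the 8 subunits of the chaperonin that folds actin and tubulin, 4 rose (50%) and none fell, with a median of 0.49. Cct2 rose by 1.13, Tcp1 by 0.91, Cct8 by 0.76 and Cct3 by 0.49. The COP9 signalosome and the initiation factor eIF3 share the fold of several lid subunits. Of their 20 tested genes 11 rose (55%) and 1, Cops6, fell (5%), with a median of 0.40. Over all genes tested the shares were 14.8% higher and 18.8% lower. Those that rose were Eif3c, Cops5, Eif3m, Eif3l, Eif3b, Cops2, Eif3e, Eif3f, Cops4, Eif3i and Eif3k, by 1.17 to 0.39 in this order. The core and regulatory particle had 28 of 31 and a median of 0.93, but the difference between the lists was not tested.

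**Figure D4:**
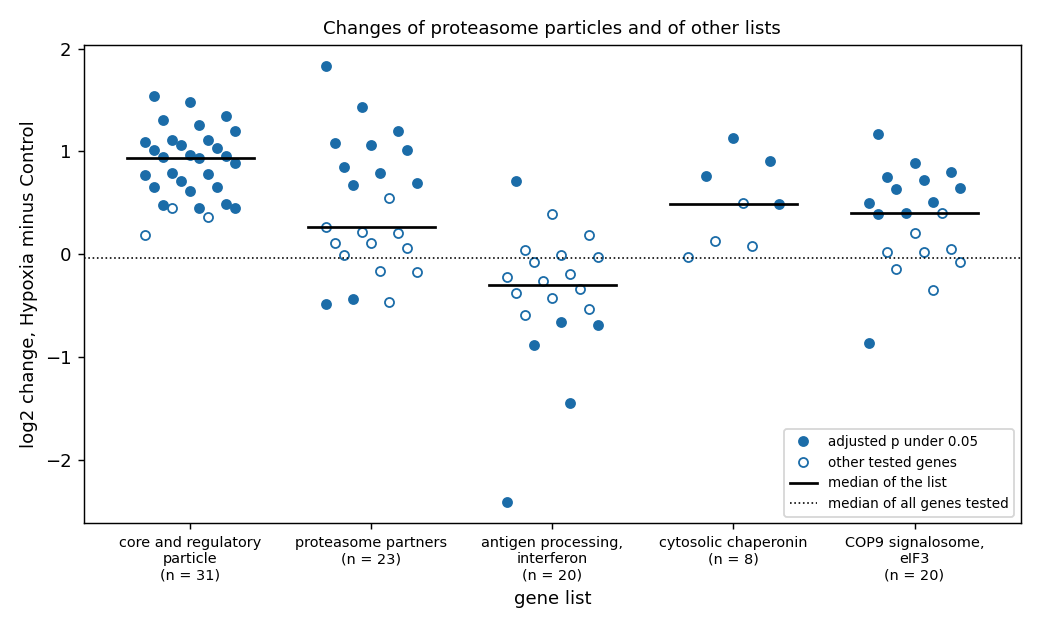
The plot gives the log2 change, Hypoxia minus Control, of each tested gene of 5 lists, with filled points for an adjusted p under 0.05, a bar at the median of each list and a dotted line at the median of all genes tested. The core and regulatory particle genes (median 0.93) all lie above 0, the partners (median 0.26), chaperonin (0.49) and COP9 and eIF3 genes (0.40) straddle it, and the antigen processing and interferon genes have a median of -0.30.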

How the data were processed

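Total RNA of quadriceps muscle was hybridised to Affymetrix mouse arrays, 1 per sample. The deposited values are signal intensities on a linear scale, made by the authors with MAS5 (submitters' processing notes), which subtracts mismatch background and scales each array. The MAS5 version is not given in the sources used here. The 2% trimmed means were equal over arrays, so this scaling was kept.

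From these intensities, log2(signal + 16) was computed. Of 45101 probe sets, 64 controls and then the 40% with the lowest mean were left out (a signal of about 90.2). Each of 13257 genes was read from its brightest probe set. Hypoxia was compared with Control in limma 3.58.1 (R 4.3.3; eBayes with an intensity trend, two-sided, Benjamini-Hochberg over all genes, threshold 0.05). A log2 change of a dim gene is understated by the added constant. Probe set symbols came from the platform annotation, and 99.4% matched a gene of GRCm38.p6. The number of arrays limits the precision.

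The members and lists were chosen with earlier results of these data known. Values on all arrays are given for the largest and smallest change of each role list and for every immunoproteasome, activator, inhibitor and chaperone gene; of other lists, genes that passed and those with the 4 smallest p-values are named. Vcp, Nfe2l1, Pomp, Sem1 and the lid genes that did not pass were singled out after their values were seen where they fall outside this. On data simulated for this comparison, with 13257 genes, 50 genes drawn from all those tested were changed at each size. Recovered were 8% of those changed by 0.5 on the log2 scale, 44% at 1, 82% at 2 and 100% at 4. There were 7 false calls. Far more genes were called in the real data (33.6%), which loosens the adjusted threshold, so these shares do not carry over to the members. Among members that changed by 0.45, Psma3 was called and Psmd13 was not. No arrays were identical, and all 8 columns belonged to these samples. Alternatives were other scalings, pseudocounts of 1 and 64, other filters, probe set rules and eBayes settings, weighted arrays, a block for the replicate number, and omission of each array in turn.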

Additional observations from a re-analysis of the deposited data

Results flagged for a closer look

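Within groups of 4 arrays, 102 sets of values were examined for a single array far from the others, where chance gives about 1 in 20, and 7 were found. In Hypoxia 1 the 3' to 5' ratio of Gapdh was 3.44, while Hypoxia 2 to 4 had 0.801 to 0.874. The beta-actin ratio of that array was 2.53, while Hypoxia 2 to 4 had 1.40 to 1.59. Psmb8 was at 226.3 in Control 4 against 473 to 532 in the other Control arrays. Psmd9 was at 442 in Control 2 against 546 to 564, and Psmd2 was at 7839 in Control 2 against 6341 to 6554. Psmd14 was at 6305 in Control 2 against 5302 to 5328, and Psmd1 was at 4929 in Control 1 against 5779 to 5950.

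Psmb11 was below the filter and entered no comparison, yet its lowest Hypoxia signal of 94.6 lay above its highest Control signal of 76.8. Without a filter it was called higher, the 1 such gene among the immunoproteasome and thymoproteasome subunits. In that setting 10.5% of all genes were called higher. Psmb11 reached the filter signal of 90.2 only in Hypoxia, so nothing is drawn from this call.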

How the results depend on the processing

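Counts of called members stayed within 1.5 times under other scalings, pseudocounts, filters and eBayes settings. With every probe set as a unit, 45 probe sets of members were called higher, all 45 in the core and regulatory particle (12 alpha ring, 10 ATPase, 10 lid), with a member median of 0.51, and 1 chaperone probe set was called lower. Over all probe sets 3043 were higher and 4107 lower; partners had 18 higher and 6 lower, ubiquitin genes 2 lower, antigen genes 0 higher and 9 lower, chaperonin 11 higher, COP9 and eIF3 19 higher and 3 lower. These counts have more units by construction. Partners called lower were 1 with quantile normalization, no filter or the mean of probe sets, and 0 with median centring, no eBayes trend or the block. Antigen genes called higher were 0 with no filter, the 60% filter, robust eBayes or the block, and 2 with array weights; with the 60% filter 3 were lower and 1 immunoproteasome gene was lower, and with no filter 1 was higher. Where not given, the cause was not tested.

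Leaving out 1 array at a time gave a core and regulatory particle median of 0.83 to 0.99, 25 to 29 members higher, partners lower 0 to 3, antigen genes higher 0 to 2 and lower 3 to 6, and -2.21 to -1.43 for the dim Psmb9 against Psmb6, which is not compared above. Of members that did not pass, the log2 change of Psmg2 ran from -0.30 to 0.018, that of Psme4 from -0.033 to 0.079 and that of Psmd10 from -0.045 to 0.099 (-0.015 without Hypoxia 2).

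Same-numbered arrays did not deviate together (correlations -0.07 to 0.00). Differently numbered arrays were not compared in this way, and the labels give no meaning for the number. With the replicate number as a block 25 members were called higher and 3 lower, and over all genes 1782 higher and 2300 lower; Psmb7, Psma6 and Psma3 lost their calls (limma adjusted p = 0.0702, 0.0677 and 0.0606). Dim signals limit Psmb8, Psmb9, Psmb11, Tap1, Tap2, Ifit3, Pi16 and S100a9.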
